A study of Homo sapiens with 20 samples.

Results

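Long intergenic noncoding RNAs were followed here by name: the members are the rows whose symbol is LINC followed only by digits, with 1 exception that the rule leaves out. They made up 875 of the 26485 rows of each of 2 tables, 1 table for each of 2 experiments, and no measured value was used to choose them. The RNA was taken from isolated nuclei of HCT116, an established colorectal carcinoma cell line with wild-type p53, depleted of ribosomal RNA and read with a directional kit. All cells were electroporated and then kept for 3 hours in medium with 0.1% DMSO. The 4 conditions of each experiment were DMSO after electroporation with water, 10 µM Nutlin-3a in the DMSO after water, DMSO after 10 µM of a stapled peptide, and Nutlin-3a after the peptide. Peptide wells also received 200 nM peptide in the medium, so dose and delivery of the peptide are the same in both peptide groups. Experiment 1 had 2 libraries of each condition and experiment 2 had 3, which gave 20 libraries. Nothing in the labels says that replicates came from separate cultures, so the p-values measure the spread between these libraries, which may be technical.

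A lincRNA is a long transcript with a cap and usually a poly(A) tail that lies between protein-coding genes and encodes no known protein. Many stay in the nucleus near the place where they are made, some act on the neighbouring gene or on chromatin, and for most no function is known. Nutlin-3a keeps the ubiquitin ligase MDM2 off p53, so that p53 builds up and switches on its targets, among them several noncoding RNAs. p53 does this through Mediator, the complex that passes signals from transcription factors to RNA polymerase II, and the peptide was made to block that contact. The comparisons asked which lincRNA rows are in the nuclear RNA, and which of them follow Nutlin-3a, the peptide or both.

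Levels are given in RPM, the reads of a row scaled to a common total of 1000000 over all rows, with no division by length unless stated. The rows held 36717795 to 63896604 reads in a library of experiment 1 and 18787172 to 47407746 in experiment 2. The epithelial gene EPCAM had 89.0 RPM in the first experiment and 367 in the second, KRT8 had 1124 and 1556 RPM, and the leukocyte gene PTPRC and the fibroblast gene COL1A2 had means of at most 0.0313 RPM. In such bulk samples fewer cells that make an RNA and less of it per cell cannot be told apart. The share of ribosomal and further structural RNA was 16.96 to 26.4% in libraries of experiment 1, against 1.67 to 5.29% in those of experiment 2. In experiment 1, replicate 2 of Nutlin-3a with water stood apart, with a scaling factor by the trimmed mean of M values (TMM) of 0.698 against 0.786 to 0.923 in the other 7 libraries. Its LINC rows took 0.229% of reads, the lowest share of that experiment. The p53 targets CDKN1A and MDM2 had log2 differences of 1.16 and 0.95 under Nutlin-3a without peptide, and neither passed the test.

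The promoters of 7 rows are printed here because the results below turn on their transcripts: LINC00657, LINC00673 and LINC00152 are among the 4 LINC rows of highest mean RPM over the 20 libraries, LINC00630 differed between the experiments, and LINC01270, LINC00346 and LINC01573 led the treatment comparisons. Each is the RefSeq stretch from 250 bases before to 50 bases after the start of transcription on GRCh38.p14, 5′ to 3′ on the gene's strand. RefSeq held such a stretch for 616 of the 875 rows and for 146 of the 209 that were abundant enough to test. Capitals mark an E-box (CACGTG) in LINC00657 and GC boxes (GGGCGG or its complement) in LINC00673 and LINC01573. They mark a cyclic AMP response element (TGACGTCA) in LINC00630 and the letters CCAAT in LINC00152, at position 6 after the start. In LINC01270 they mark a pair of CATG cores (CATG, 6 bases of any kind, CATG). In LINC00346 they mark a match to the p53 half-site consensus. Only 1 kind of motif is marked in each window. Left unmarked, on either strand, are CCAAT in LINC00630, LINC01270, LINC00346 and LINC01573, and GGGCGG in LINC01270.
LINC00657: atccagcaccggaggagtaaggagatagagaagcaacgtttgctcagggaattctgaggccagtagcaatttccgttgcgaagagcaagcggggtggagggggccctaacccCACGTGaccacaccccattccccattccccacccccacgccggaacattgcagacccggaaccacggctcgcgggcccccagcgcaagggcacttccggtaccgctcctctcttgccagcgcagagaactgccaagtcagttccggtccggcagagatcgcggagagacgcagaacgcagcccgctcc
LINC00673: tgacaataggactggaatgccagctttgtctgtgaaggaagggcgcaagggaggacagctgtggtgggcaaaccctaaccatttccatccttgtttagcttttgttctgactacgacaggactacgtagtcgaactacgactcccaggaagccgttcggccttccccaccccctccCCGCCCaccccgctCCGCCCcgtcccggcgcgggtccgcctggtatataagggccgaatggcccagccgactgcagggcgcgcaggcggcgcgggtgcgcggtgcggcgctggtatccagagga
LINC00152: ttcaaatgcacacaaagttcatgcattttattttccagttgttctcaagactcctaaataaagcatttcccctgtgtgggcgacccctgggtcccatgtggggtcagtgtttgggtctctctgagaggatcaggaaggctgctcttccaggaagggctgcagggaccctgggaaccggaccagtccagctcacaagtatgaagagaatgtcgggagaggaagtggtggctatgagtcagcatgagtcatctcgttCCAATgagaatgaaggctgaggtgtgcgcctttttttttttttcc
LINC00630: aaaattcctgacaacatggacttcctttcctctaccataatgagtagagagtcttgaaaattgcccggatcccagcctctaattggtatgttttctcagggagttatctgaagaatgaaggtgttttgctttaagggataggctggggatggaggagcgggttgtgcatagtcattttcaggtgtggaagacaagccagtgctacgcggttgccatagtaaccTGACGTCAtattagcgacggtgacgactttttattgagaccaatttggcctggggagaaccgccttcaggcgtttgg
LINC01270: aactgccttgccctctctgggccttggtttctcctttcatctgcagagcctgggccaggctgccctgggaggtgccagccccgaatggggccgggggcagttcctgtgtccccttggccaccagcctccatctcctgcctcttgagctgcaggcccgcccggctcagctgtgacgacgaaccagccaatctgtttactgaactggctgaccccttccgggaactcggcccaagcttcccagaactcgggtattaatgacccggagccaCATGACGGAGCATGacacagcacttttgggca
LINC00346: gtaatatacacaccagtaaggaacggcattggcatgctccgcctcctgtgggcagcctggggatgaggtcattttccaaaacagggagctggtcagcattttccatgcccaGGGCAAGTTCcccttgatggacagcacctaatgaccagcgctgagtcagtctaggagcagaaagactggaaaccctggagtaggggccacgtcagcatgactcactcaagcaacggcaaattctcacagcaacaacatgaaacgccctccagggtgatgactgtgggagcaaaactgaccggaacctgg
LINC01573: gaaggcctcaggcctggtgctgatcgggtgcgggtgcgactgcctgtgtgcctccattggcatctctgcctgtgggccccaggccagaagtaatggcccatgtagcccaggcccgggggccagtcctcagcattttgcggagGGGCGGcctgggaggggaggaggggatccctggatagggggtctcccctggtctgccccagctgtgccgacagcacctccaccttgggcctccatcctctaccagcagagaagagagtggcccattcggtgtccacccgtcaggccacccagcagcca

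These windows lie at chr20:36050911-36051210 (minus strand, LINC00657, now named NORAD), chr17:72592755-72593054 (minus, LINC00673), chr2:87455177-87455476 (plus, LINC00152, now CYTOR), chrX:102768903-102769202 (plus, LINC00630), chr20:50292470-50292769 (plus, LINC01270), chr13:110870259-110870558 (minus, LINC00346, now PRECSIT) and chr9:136547592-136547891 (plus, LINC01573, now NALT1). Motifs were searched on both strands. The pair of CATG cores was in 0.373% of all 35116 RefSeq promoters and in 1 of the 146 tested LINC promoters, that of LINC01270, where it begins 19 bases after the start. The p53 half-site consensus was in 6.63% of all promoters and 6.16% of the 146. The centre of a half-site can be CATG, so both searches can meet the same bases. In LINC01270 they did not, as its window held no match to the half-site consensus. A full p53 site, 2 half-sites with at most 13 bases between them, was in 0.0285% of all promoters and in 0 of the 146. GGGCGG was in 45.0% of all promoters and 34.9% of the tested LINC promoters, CCAAT in 34.6% and 44.5%, TATAAA in 11.5% and 16.4%, CACGTG in 7.26% and 7.53%, and TGACGTCA in 1.85% and 2.05%. A match describes letters in this window and is no evidence of binding.

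Most LINC rows were not found in the nuclear RNA, where found means a mean of at least 0.5 RPM in an experiment and at least 3 reads in each of its libraries. Experiment 1 held 221 of the 875 (25.3%) and experiment 2 held 177 (20.2%). Both experiments held 160, experiment 1 alone 61, experiment 2 alone 17 and neither 637, and 78 rows had no read in any library. Over all rows of the tables, 59.0% were found in experiment 1 and 57.8% in experiment 2. Of other noncoding classes taken by symbol, antisense rows were found at 36.7% and 35.6%, rows named LOC at 28.7% and 25.2%, and small nucleolar RNA host genes at 90.5% in both. Just inside the line in experiment 1 were LINC00607 at 0.503 RPM and LINC01205 at 0.503 RPM, and just outside was LINC01091 at 0.496 RPM.

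Most of the 61 rows found in experiment 1 alone were scarce and long. Their median level was 0.815 RPM in experiment 1 and 0.254 RPM in experiment 2, their median span was 88.6 kb, and 38 spanned over 50 kb. Of the 61, 6 missed in experiment 2 only because a library had fewer than 3 reads, and experiment 2 has fewer reads and more libraries in which the rule must hold. LINC00310 had 2.28 RPM in experiment 1, at least 77 reads in each library, and 0.0786 RPM in experiment 2, where at least 1 library had 0 reads. LINC00311 had 3.30 RPM against 0.353 RPM. The 17 rows found in experiment 2 alone had a median span of 10.6 kb, and only 1 spanned over 50 kb. The highest of them was LINC00672, at 0.415 RPM in the first experiment and 6.16 RPM in the second.

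The found LINC rows were low, with medians of 2.21 and 2.84 RPM in the first and second experiment against 16.4 and 22.8 RPM over all found rows. All LINC rows together made up 0.229 to 0.386% of a library of experiment 1 and 0.215 to 0.346% of one of experiment 2. A few rows held much of this: the 10 with the most reads took 50.01% of the LINC reads in experiment 1 and 44.5% in experiment 2. In experiment 1 the order by reads was LINC00673 (581 RPM), LINC00152 (298 RPM), LINC00669 (221 RPM), LINC00657 (150 RPM), LINC01572 (130 RPM) and LINC01515 (72.5 RPM). In experiment 2 it was LINC00657 (430 RPM), LINC00669 (143 RPM), LINC01578 (98.2 RPM), LINC00641 (93.9 RPM), LINC01106 (87.5 RPM) and LINC00342 (86.4 RPM). These are shares of reads, and a long row collects more of them.

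Per kb of row span the order was another one. LINC00657, which is NORAD, a cytoplasmic RNA known to bind PUMILIO proteins, led both experiments with 28.05 RPM per kb in experiment 1 and 80.4 RPM per kb in experiment 2. LINC00673 was at rank 1 by reads and rank 11 per kb in experiment 1 (3.07 RPM per kb over 189 kb), and LINC00152, the cytoskeleton regulator RNA CYTOR, at rank 2 and rank 8 (4.51 RPM per kb). LINC00998, which RefSeq now lists as the microprotein gene SMIM30, came second per kb in experiment 2 with 21.0 RPM per kb, ahead of LINC00641 (17.3 RPM per kb) and LINC00493, now SMIM26 (13.8 RPM per kb). LINC01578 is CHASERR, known as the neighbour and repressor of the chromatin remodeller gene CHD2, and had 2.04 and 6.17 RPM per kb. The span includes introns, and whether the authors counted reads over introns is not given in the sources used here.

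**Figure D1:**
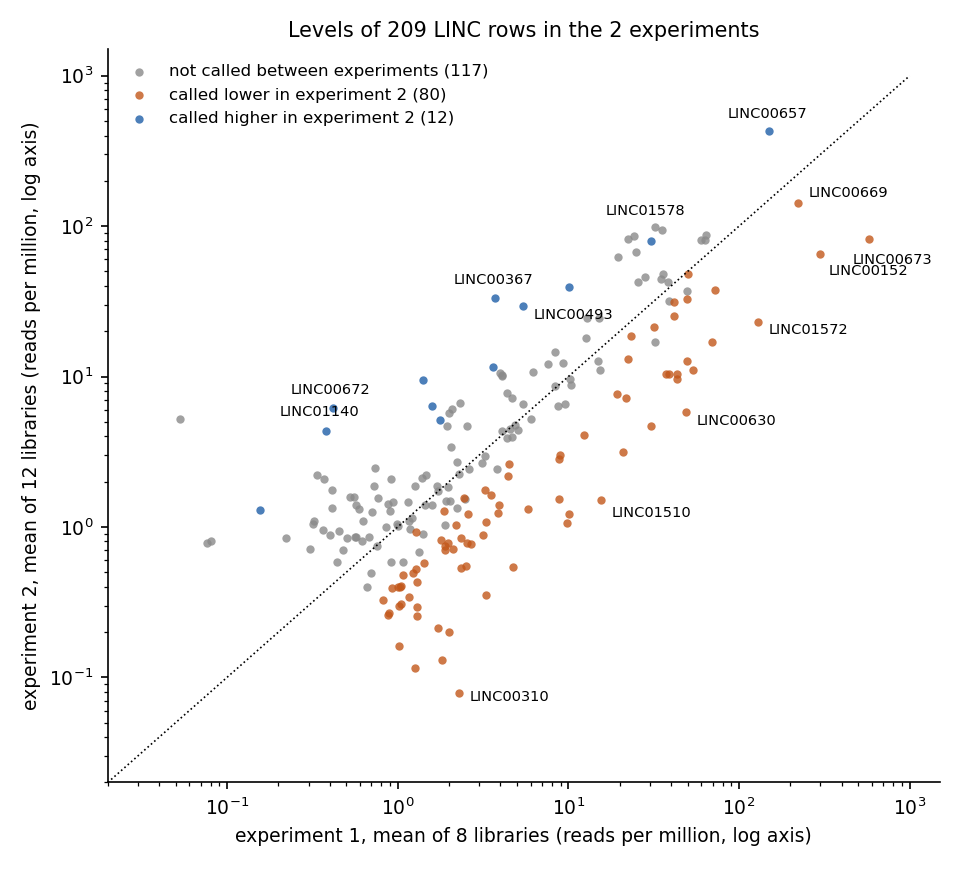
Mean level of each of the 209 tested LINC rows in experiment 1 (x axis, 8 libraries) and experiment 2 (y axis, 12 libraries), in RPM on log axes, with the dotted line at equal levels. The 80 rows called lower in experiment 2 lie mostly below the line, with LINC00673 at 581 against 81.6 RPM, and LINC00657 lies above it at 150 against 430 RPM.

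Several of these symbols do not stand for separate intergenic genes. Of the 875 rows, 761 overlapped no other row, among them 174 of the 209 tested. RefSeq now gives another symbol to 44 of the 209 and calls 12 of them protein coding. The span of 34 of the 209 overlaps an exon of a coding gene in GENCODE v29, and 19 start within 1000 bp of the start of a coding gene on the opposite strand, such as LINC00685 (326 bp from GTPBP6) and LINC01184 (692 bp from SLC12A2). LINC01106 and LINC01123 overlap on chromosome 2, so their reads (87.5 and 81.3 RPM in experiment 2) cannot be counted as 2 transcripts. LINC01001 on chromosome 11 and LINC01002 on chromosome 19 have promoter windows identical at 230 of 233 aligned bases (98.7%), and their values are reported as uncertain because reads could fall on either copy. LINC00260 lies inside ATP2B4 on its strand, and LINC01270 overlaps LINC01271 on the other strand. How strand was used in the counting is not stated.

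Many LINC rows differed between the experiments, most of them lower in experiment 2. Experiment holds every difference of batch, so the cause of these differences cannot be told apart. In untreated cells (DMSO and water, 2 against 3 libraries), limma's test called 80 of the 209 LINC rows lower and 12 higher in experiment 2. Over all 15958 rows tested, 21.5% were called lower and 21.3% higher, against 38.3% and 5.74% of the LINC rows. The median log2 difference was -0.63 for the LINC rows and 0.06 for all rows. Antisense rows leaned the same way as LINC rows, with 134 of 386 lower, 34 higher and a median of -0.40. So did rows named LOC, with 173 of 438 lower, 29 higher and a median of -0.49. Of 19 small nucleolar RNA host genes, 4 were lower and 3 higher, with a median of 0.53. Without TMM scaling the medians of LINC rows and of all rows were -0.39 and 0.31. On that scale 63 LINC rows were called lower (30.1%, all rows 15.9%) and 22 higher (10.5%, all rows 27.4%). Leaving out either untreated library of experiment 1 lowered the 92 calls to 55 of 204 (replicate 1; 27.3% of all rows) or 60 of 205 (replicate 2; 28.4% of all rows). With the structural RNA rows left out of the totals, 216 LINC rows could be tested, 98 were called (45.4%, all rows 42.4%) and the median was -0.66.

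Among the rows lower in experiment 2 were several that led experiment 1. LINC00673, a noncoding RNA of chromosome 17 described in several cancers, had 444 RPM at the lowest, 594 at the median and 681 at the highest over the 8 libraries of experiment 1, and 25.9, 67.8 and 193 RPM over the 12 of experiment 2. The libraries do not overlap. In untreated cells this was 675 ± 8.27 RPM (SD, n = 2) against 74.7 ± 41.6 RPM (SD, n = 3), a log2 difference of -3.59 ± 0.75 (SE) with an adjusted p of 0.00133 in limma. LINC00630, a row of the X chromosome, had 24.3, 53.3 and 56.7 RPM in experiment 1 and 3.99, 5.58 and 8.84 RPM in experiment 2, again with no overlap (log2 -3.52 ± 0.32, adjusted p = 6.85e-07). LINC01510, now COMETT, 2410 bp from the caveolin gene CAV1 on the other strand, gave the largest difference, -3.73 ± 0.77 (adjusted p = 0.0012), with 8.75 to 19.7 RPM in experiment 1 and 0.236 to 5.05 RPM in experiment 2. LINC00152 had 213 to 338 RPM against 23.7 to 127 RPM, and LINC01572 had 56.8 to 160 RPM against 8.35 to 51.1 RPM.

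The 12 rows higher in experiment 2 were short, with a median span of 4.78 kb and 0 over 50 kb. Long rows outside the LINC set were seldom called higher too. These were 96 of 2111 at 50 to 100 kb, 24 of 1343 at 100 to 200 kb and 13 of 858 over 200 kb. LINC00367 led the 12 with 1.43, 4.03 and 4.71 RPM at the lowest, median and highest in experiment 1 and 24.7, 31.9 and 42.2 RPM in experiment 2 (log2 2.71 ± 0.30, adjusted p = 5.26e-06). No library of one experiment reaches the range of the other. Of the 12 rows now called protein coding, 3 were called higher: LINC00493 (SMIM26, 2.16 ± 0.43), LINC00998 (SMIM30, 1.54 ± 0.26) and LINC00672 (LASP1NB, 2.33 ± 0.87). Another 3 of them were called lower. Over all rows tested, 21.3% were called higher and 21.5% lower. LINC01140 had a difference of 2.07, but its row has other coordinates in the table of experiment 2, as have 9 of the 209. LINC00657 had 88.8, 156 and 176 RPM in experiment 1 and 321, 380 and 628 RPM in experiment 2 (log2 1.16 ± 0.35, adjusted p = 0.0144). Its call is lost without replicate 1 (adjusted p = 0.0783) or 2 (0.0736) of the untreated libraries of experiment 1, or without replicate 1 of experiment 2 (0.0587). The calls of LINC00672 and LINC00888 (1.71) are lost in the same 3 settings and in others. The libraries of one experiment all lay above those of the other for 59 rows in RPM: 32 (15.3%) higher in experiment 1, against 10.3% of all rows, and 27 (12.9%) higher in experiment 2, against 32.3%.

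**Figure D2:**
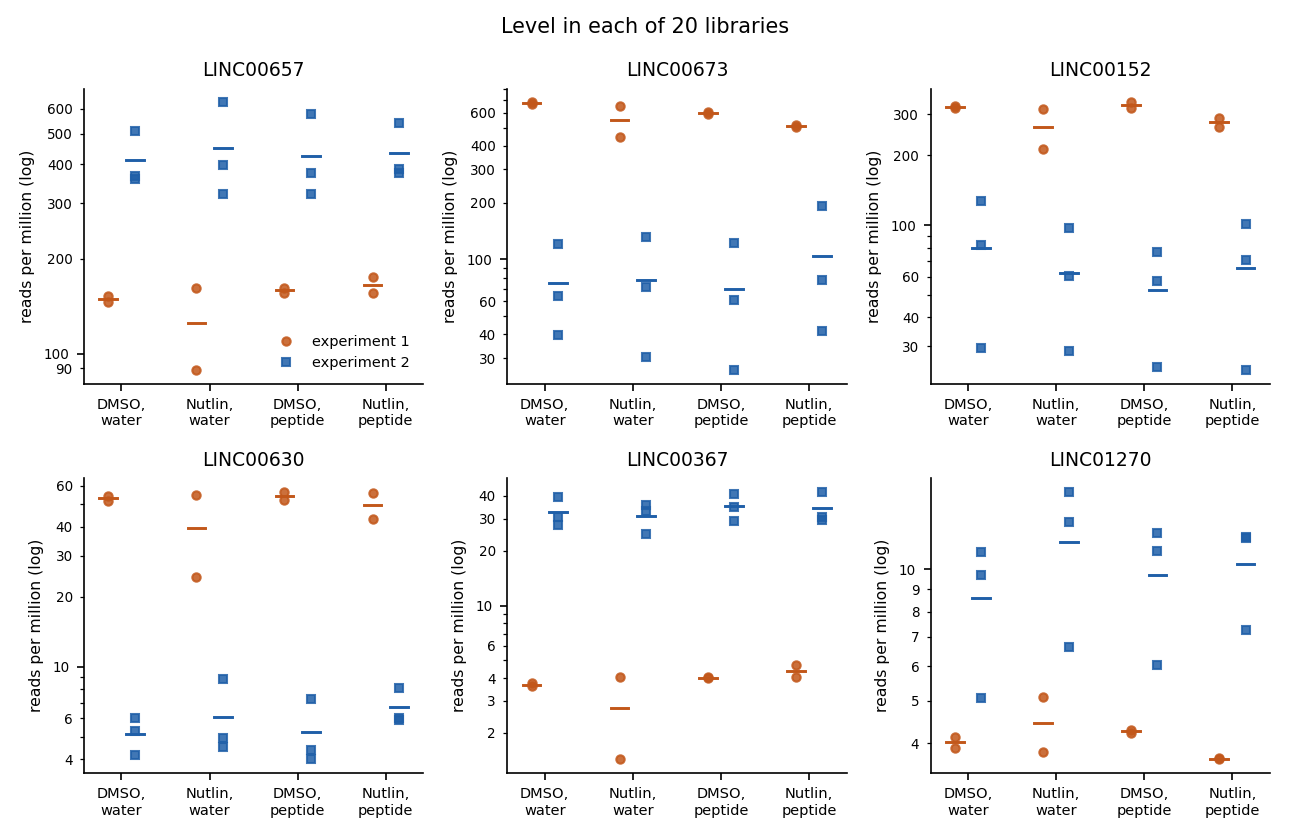
Level of 6 LINC rows in each of the 20 libraries (points, RPM on log axes) with the mean of each group (bars), experiment 1 as circles and experiment 2 as squares. LINC00673, LINC00152 and LINC00630 are higher in every library of experiment 1, and LINC00657 and LINC00367 in every library of experiment 2.

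The difference between the experiments varied with the span of the row. LINC rows of at most 5 kb had a median log2 difference of 0.25 (48 rows), those of 5 to 20 kb -0.31 (57 rows), of 20 to 50 kb -0.59 (36 rows), of 50 to 100 kb -1.55 (23 rows) and of 100 to 200 kb -1.73 (28 rows). Over 200 kb, in only 17 rows, it was -1.48. The other rows of the table ran the same way, from 0.67 at most 5 kb to -1.15 at 100 to 200 kb and -1.78 over 200 kb. Across rows, which are not independent replicates and share the same libraries, Spearman's rho of span and difference was -0.54 for the 209 LINC rows and -0.53 for the 15749 other rows. In the 5 span classes up to 200 kb the LINC median was below that of the other rows. Of the 80 rows called lower, 48 spanned over 50 kb. By class these were 15 of 23 LINC rows at 50 to 100 kb, 19 of 28 at 100 to 200 kb and 14 of 17 over 200 kb. Of the other rows in the same classes, 734 of 2111, 779 of 1343 and 686 of 858 were called lower.

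**Figure D3:**
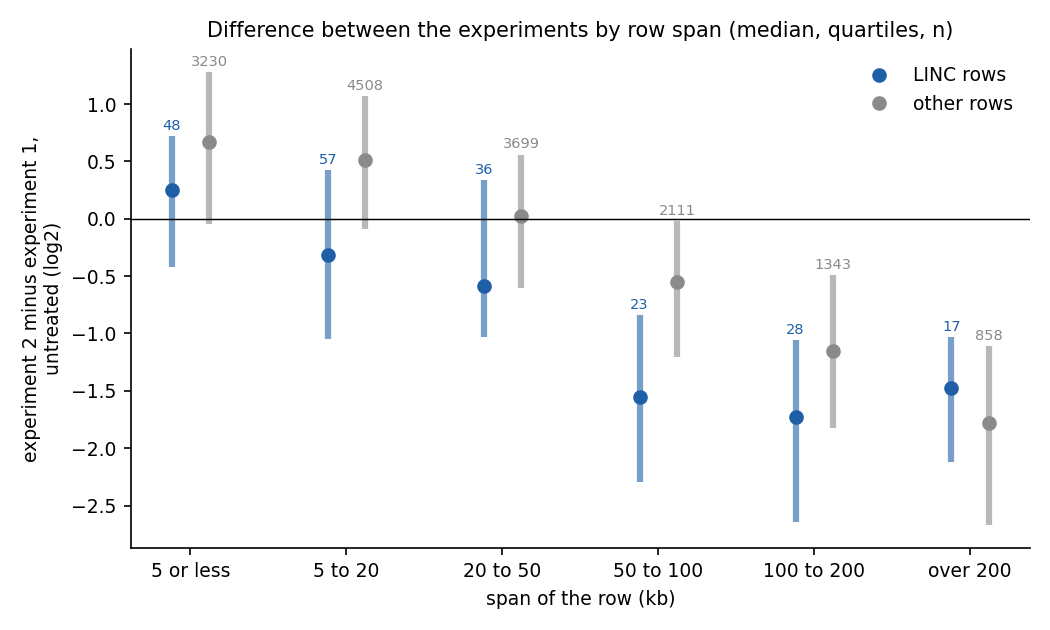
Log2 difference of untreated cells, experiment 2 minus experiment 1, by span of the row, as median (point) and quartiles (bar) with the number of rows, for the LINC rows and for all other tested rows. The LINC median runs from 0.25 at 5 kb or less to -1.73 at 100 to 200 kb, and that of the other rows from 0.67 to -1.15.

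No LINC row passed the test under Nutlin-3a without peptide. Of 15958 rows, 0.0% were called in this and in each of the other treatment comparisons below, by limma with a term for experiment and by limma with the replicate numbers as blocks. Of the 209 LINC rows, 0 had an unadjusted p under 0.05 with the experiment term and 11 with blocks. In this and the other treatment comparisons, such unadjusted counts stand without a share over all rows and are no result about LINC rows. Of the 209, 100 were above 0 and 109 below, and the median log2 difference was -0.01 (all rows -0.03). Without the library that stood apart, with blocks, the LINC median was 0.058 with 133 of 206 above 0. It was -0.10 in experiment 1 alone and 0.065 in experiment 2 alone. The median of 110 tested p53 targets was 0.28. Same-numbered libraries of an experiment deviated together, so the 5 pairs give a direction: 6 LINC rows were higher in 5 of 5 pairs (2.87%, as in 2.87% of all rows) and 7 were lower (3.35%, against 4.51%). Of the 110 p53 targets, a list chosen with results of these data known, 42 were higher in 5 of 5. Without the pair that holds the library that stood apart, 25 LINC rows were higher in 4 of 4 pairs (all rows 10.6%) and 10 were lower (4.78%, all rows 12.1%). In plain RPM 3 were higher in 5 of 5 (1.44%, all rows 2.58%) and 4 lower (1.91%, all rows 3.19%), and in 4 of 4 it was 30 higher (14.4%, all rows 12.04%) and 5 lower (2.39%, all rows 6.49%).

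LINC01270 is a lincRNA of chromosome 20 whose window shown above holds the pair of CATG cores but no match to the p53 half-site consensus. It had the smallest blocked p of the rows that were higher under Nutlin-3a. In experiment 1 it had 4.14 and 3.90 RPM untreated and 5.10 and 3.82 RPM with Nutlin-3a. In experiment 2 it had 9.71, 5.09 and 10.96 RPM untreated and 15.02, 6.65 and 12.8 RPM with Nutlin-3a. The groups overlap, and each replicate number was higher with Nutlin-3a except number 2 of experiment 1, which holds the library that stood apart and is higher only after TMM scaling. The log2 difference was 0.30 ± 0.24 (SE, adjusted p = 1.00 in limma) and its SE was 0.08 with blocks (adjusted p = 0.475). With peptide present it was -0.01, with 3.68 and 3.70 RPM in experiment 1 and 11.8, 7.27 and 11.8 RPM in experiment 2.

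LINC00346, now PRECSIT, a lincRNA named for its regulation by p53, ran alongside. It had 4.25 and 4.19 RPM untreated and 5.17 and 4.11 RPM with Nutlin-3a in experiment 1. Experiment 2 gave 3.80, 2.62 and 4.55 RPM untreated and 5.74, 3.73 and 5.22 RPM with Nutlin-3a. As for LINC01270, the groups overlap and 4 of 5 pairs were higher in RPM, 5 of 5 after scaling. The log2 difference was 0.29 ± 0.17 (SE), with an adjusted p of 1.00 in limma and of 0.649 with blocks. LINC00685 (0.32) was higher in 5 of 5 pairs on both scales, at 0.262 to 0.992 RPM untreated and 0.491 to 1.63 RPM with Nutlin-3a. LINC00339 (0.16), LINC00999 (0.18) and LINC01061 (0.35) were the others with 5 of 5 after scaling, and LINC01061 took most of its difference from the library that stood apart, where it had 28.1 RPM against 15.4 RPM in its partner.

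LINC00152 was the most abundant row that was lower under Nutlin-3a in 5 of 5 pairs, on both scales. It had 327 and 319 RPM untreated and 318 and 213 RPM with Nutlin-3a in experiment 1. Experiment 2 gave 82.1, 29.7 and 127 RPM untreated and 60.5, 28.5 and 96.9 RPM with Nutlin-3a. The 3 libraries of experiment 2 spread more within a group than the groups differ (log2 -0.28 ± 0.40, adjusted p = 1.00 in limma and 0.649 with blocks). LINC01184 (-0.32) and LINC00624 (-0.34) were lower in 5 of 5 pairs after scaling, with pair 2 of experiment 1 at -1.14 and -0.95. LINC01420, now NBDY, which encodes a microprotein of the mRNA decapping complex, was at -0.20, and LINC00562 (-0.26), LINC01399 (-0.17) and LINC00998 (-0.15) were the other rows of this kind. LINC00669 (-0.27) was lower in 4 of 5.

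**Figure D4:**
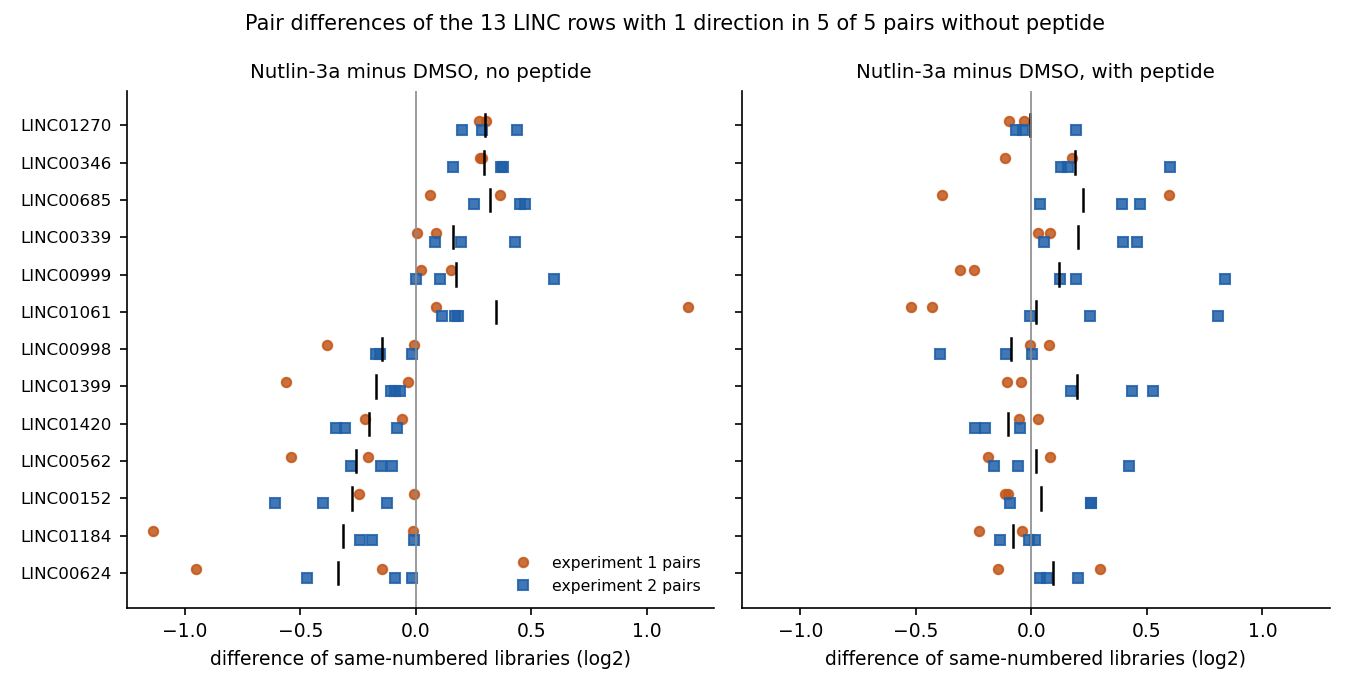
Differences of same-numbered libraries, Nutlin-3a minus DMSO, on the log2 scale after TMM scaling, for the 13 LINC rows with 1 direction in 5 of 5 pairs without peptide, shown without (left) and with (right) peptide. Black bars mark the mean. LINC01270 runs from 0.20 to 0.44 without peptide and from -0.10 to 0.19 with it, and most other rows lie on both sides of 0 with peptide.

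With the peptide present, Nutlin-3a again gave 0 called LINC rows, and 0 and 9 had an unadjusted p under 0.05 with the experiment term and with blocks. The median was 0.05 (all rows -0.01), 141 of 209 rows were above 0, and 11 were higher in 5 of 5 pairs (5.26%) against 1.62% of all rows, while 6 were lower (2.87%, all rows 3.16%). In plain RPM 6 were higher in 5 of 5 (2.87%, all rows 1.28%) and 5 lower (2.39%, all rows 3.45%). The median was -0.07 in experiment 1 alone. Over both experiments after scaling, antisense rows had a median of 0.05, 253 of 386 above 0 and 16 higher in 5 of 5 pairs. Rows named LOC had a median of 0.05, 300 of 438 above 0 and 20 higher in 5 of 5 pairs. The lean was thus not particular to LINC rows. The row with the smallest blocked p of those above 0 was LINC00672, now LASP1NB (0.39), which had 0.347 and 0.358 RPM without and 0.376 and 0.469 RPM with Nutlin-3a in experiment 1. Experiment 2 gave 7.76, 0.847 and 5.42 RPM without and 10.6, 1.43 and 10.1 RPM with Nutlin-3a. Replicate 2 of experiment 2 is low in both groups, each pair is higher, and the groups overlap. LINC00486 (0.32), LINC01504 (0.29), LINC01588 (0.22), LINC01006 (0.21) and LINC00339 (0.20) were among the others with 5 of 5. LINC00944 (-0.30), LINC00115 (-0.29), LINC00842 (-0.22), LINC00467 (-0.17) and LINC01234 (-0.12) were lower in 5 of 5.

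LINC00673 and LINC00511 lie 5.24 kb apart on the same strand of chromosome 17, where GENCODE v29 has both as LINC00511, so they may be parts of 1 transcript. Their pairs had opposite signs in the experiments. LINC00511 had 16.8 and 14.9 RPM with peptide and DMSO and 14.4 and 12.5 RPM with peptide and Nutlin-3a in experiment 1. In experiment 2 it had 14.3, 8.66 and 3.19 RPM and 22.2, 11.4 and 7.20 RPM. It was thus lower in both pairs of experiment 1 (-0.10 and -0.09) and higher in the 3 pairs of experiment 2 (0.58, 0.32 and 0.92). LINC00673 was likewise lower in experiment 1 (-0.11 and -0.07) and higher in experiment 2 (0.62, 0.28 and 0.54). Pooled, the log2 differences were 0.33 ± 0.39 and 0.25 ± 0.48 (SE), both with an adjusted p of 1.00 in limma. The peptide libraries without Nutlin-3a also serve in the comparison of peptide with water, where both rows were lower in 5 of 5 pairs after scaling (-0.31 and -0.19) and LINC00673 in 4 of 5 in RPM.

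The peptide under Nutlin-3a asks which rows the block of Mediator contact moves once p53 is active. LINC rows called were 0, with 1 and 17 at an unadjusted p under 0.05 with the experiment term and with blocks. The median was 0.04 with 123 of 209 above 0, as over all rows (0.04), and -0.18 over the p53 targets. Its sign rested on the library that stood apart: without it, with blocks, the LINC median was -0.016 with 92 of 206 above 0, and that of all rows 0.0090. In 5 of 5 pairs 5 LINC rows were higher (2.39%, all rows 4.86%) and 3 lower (1.44%, all rows 2.53%). Without the pair of the library that stood apart, 13 were higher in 4 of 4 (6.22%, all rows 9.84%) and 9 lower (4.31%, all rows 6.15%). In plain RPM the balance of both counts turned, for the LINC rows and for all rows. In 5 of 5 pairs 3 LINC rows were then higher (1.44%, all rows 3.16%) and 5 lower (2.39%, all rows 3.75%). In 4 of 4 pairs 7 were higher (3.35%, all rows 5.18%) and 21 lower (10.05%, all rows 12.3%). This comparison shares its Nutlin-3a and water libraries with the first one, so a row that is low in them appears in both.

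LINC01573, now NALT1, 2056 bp from the start of the receptor gene NOTCH1 on the other strand, was lower with peptide in 5 of 5 pairs on both scales. Under Nutlin-3a it had 1.64 and 2.13 RPM with water and 0.736 and 1.15 RPM with peptide in experiment 1, where the groups do not overlap. In experiment 2 it had 1.41, 2.55 and 1.09 RPM with water and 1.08, 2.09 and 1.05 RPM with peptide, which overlap. The log2 difference was -0.41 ± 0.24 (SE, adjusted p = 1.00 in limma) and its SE was 0.13 with blocks (adjusted p = 0.602). Without Nutlin-3a it was also lower with peptide in 5 of 5 pairs (-0.16). NOTCH1 itself had a log2 difference of -0.38 for the peptide under Nutlin-3a. LINC00618 (-0.32) and LINC00926 (-0.15) were the other rows lower in 5 of 5 under Nutlin-3a.

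LINC00624, a 136 kb row of chromosome 1, was higher with peptide under Nutlin-3a in 5 of 5 pairs on both scales. It had 3.41 and 1.29 RPM with water and 3.71 and 2.74 RPM with peptide in experiment 1, and 0.273, 0.479 and 1.49 RPM with water and 0.388, 0.966 and 1.69 RPM with peptide in experiment 2. The groups overlap (log2 0.38 ± 0.29, adjusted p = 1.00 in limma and 0.602 with blocks), and pair 2 of experiment 1 was the largest at 0.77. LINC01284 (0.41), LINC01399 (0.21), LINC00998 (0.18) and LINC01420 (0.13) were the others with 5 of 5. LINC01001 (-0.45) and LINC01002 (-0.46), the likely copies, had like values in every pair, from -1.32 and -1.31 in pair 2 of experiment 1 to 0.09 and 0.15 in pair 1 of experiment 2. LINC00367 (0.39), LINC00630 (0.27), LINC00923 and LINC00486 also led by blocked p, and LINC00486 turned to -0.05 without replicate 1 of Nutlin-3a with peptide of experiment 2.

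The peptide without Nutlin-3a gave 0 called LINC rows, with 0 and 3 at an unadjusted p under 0.05. The median was -0.02 (all rows 0.02), and it ran from -0.08 to 0.06 as single libraries were left out. Here 5 rows were higher in 5 of 5 pairs (2.39%, all rows 5.86%) and 10 lower (4.78%, all rows 3.28%). In plain RPM 4 were higher (1.91%, all rows 3.96%) and 12 lower (5.74%, all rows 3.52%). LINC01270 was among the higher ones (0.15) and LINC00938 (0.20) too, and LINC01002 (-0.27), LINC01193 (-0.29) and LINC00337 (-0.23) among the lower ones. LINC00152 (-0.28) had the smallest blocked p among the rows below 0 (adjusted p = 1.00 in limma). It had 338 and 318 RPM with peptide in experiment 1, pair differences of 0.10 and 0.00, and 57.2, 24.3 and 76.5 RPM in experiment 2, below each partner.

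**Figure D5:**
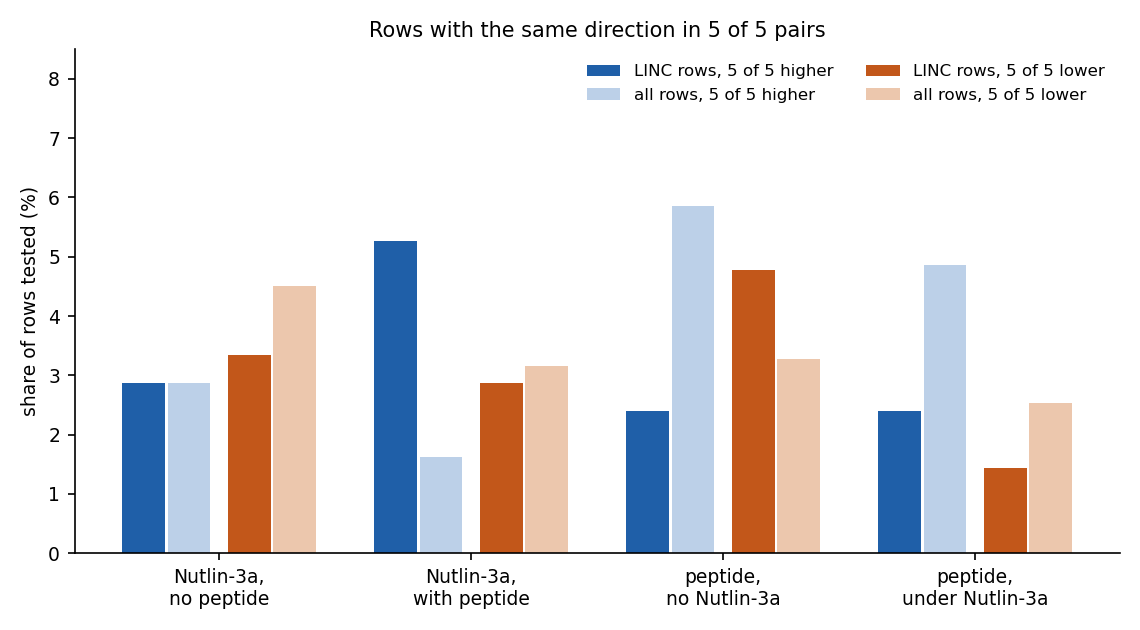
Share of tested rows (%, axis from 0) with the same direction in 5 of 5 pairs of same-numbered libraries, for the 209 LINC rows (dark bars) and all 15958 rows (pale bars), in 4 treatment comparisons. For rows that are higher, the LINC share is above that of all rows under Nutlin-3a with peptide (5.26% against 1.62%) and below it for the peptide without Nutlin-3a (2.39% against 5.86%). Antisense rows and rows named LOC are not drawn, with 16 of 386 and 20 of 438 higher under Nutlin-3a with peptide. For the peptide without Nutlin-3a, 6 of 386 and 13 of 438 were higher.

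The test of whether the peptide changed the Nutlin-3a effect called 0 LINC rows as well, with 1 and 9 at an unadjusted p under 0.05 and a median of 0.06 with 127 of 209 above 0 (all rows 0.02, p53 targets -0.26). Without the library that stood apart, with blocks, the LINC median was -0.012 with 96 of 206 above 0. The lowest and highest values were -0.51 and 0.47. Nor did any LINC row pass a test of whether a treatment effect differed between the experiments. This held in 4 comparisons, with the experiment term and with blocks. In these tests 0 to 41 LINC rows had an unadjusted p under 0.05. The 41 came under Nutlin-3a without peptide with blocks, beside 4594 of all 15958 rows. Over all rows the tests called 0 to 54. When every row with at least 1 read was tested in the treatment comparisons, LINC01251 was the single call. It was called under Nutlin-3a with peptide (log2 0.21, adjusted p = 0.0212 in limma). It is named outside the rule for named rows and had at most 0.132 RPM in any library.

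Of 20 LINC genes listed for a known other name or role, 14 could be tested and 0 were called in a treatment comparison. Between the experiments 1 of the 14 was called higher in experiment 2, LINC00657, and 3 lower, LINC00152, LINC00673 and LINC00894 (-2.69). Over all rows tested, 21.3% were called higher and 21.5% lower. The medians of the 14 were -0.05 under Nutlin-3a and 0.05 for the peptide under Nutlin-3a. LINC00511, LINC00467 and LINC01234 lay at 11.1 to 38.6 RPM in both experiments, and LINC00941 at 4.39 and 3.90 RPM. LINC00261, known from endoderm, had 0 reads in each library, and LINC00472 had at most 0.0188 RPM. LINC00473, LINC00520 and LINC00665 had at most 0.626 RPM in any library, and LINC01133 at most 1.70 RPM.

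Other nuclear long noncoding RNAs, a list of 26 with 23 tested, gave 0 calls in the treatment comparisons. Of the 23, 5 were called higher and 5 lower in experiment 2, where 21.3% and 21.5% of all rows were. The medians of the 23 were -0.06 under Nutlin-3a, with 6 above 0 and 17 below, and 0.13 for the peptide under Nutlin-3a, with 16 above and 7 below. NEAT1, the RNA scaffold of paraspeckles and a known p53 target, had log2 differences of 0.48 under Nutlin-3a and -0.34 for the peptide under it. MIR22HG had 0.45 and -0.32, and LINC-PINT had -0.12 and 0.20. TP53TG1 and PANDAR were not abundant enough to test. MALAT1, the abundant nuclear speckle RNA, had -0.01 and 0.13.

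There were 4 LINC rows within 50 kb of a p53 target of the list, and none was abundant enough to test. LINC01136 lies on the strand opposite BTG2, an antiproliferative gene, 211 bp away. It had 5, 7, 5, 2 and 2 reads in the untreated libraries, experiment 1 first, and 2, 7, 4, 4 and 2 with Nutlin-3a. The groups overlap, and at this depth a change in so few reads was not detectable. LINC01353, 16740 bp from BTG2, LINC01586, 16693 bp from AEN, and LINC00940, 9472 bp from DCP1B, had at most 18 reads in a library.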

How the data were processed

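Nuclear RNA of 20 libraries was analysed. The deposited values are a score that the authors made per RefSeq row: reads scaled to a total of 1000000 (RPM), divided by the row's stop minus a thousandth of its start. Multiplying by that divisor restored that total, and all values came out as whole reads within 0.001. This divisor was found from the values, and the design had assumed another unit. Per the submitters' processing notes, the tools were HISAT2, bedtools and limma and the build hg38. Strand handling is not given in the sources used here.

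RPM was scaled by TMM factors (30% of log ratios and 5% of abundances trimmed) and tested as log2(RPM + 0.5) in limma 3.58.1 (R 4.3.3), with condition and experiment as terms. The test covered the 15958 rows with a mean of at least 0.5 RPM, 209 of them LINC, with p adjusted by Benjamini-Hochberg over all of them at 0.05. Fold changes on this scale understate those of low rows. The experiments were compared through the 8 group means. The code was tested on simulated data. The replicate numbers pair libraries by their values, not by a label: deviations from the group means correlated at 0.286 to 0.586 in experiment 1 and 0.877 to 0.940 in experiment 2, so fits with the number as a block are given too.

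LINC rows were named where they were among the 12 with most reads in an experiment, up to 10 called in each direction, the 6 of smallest blocked p in each direction of a treatment comparison, the 8 largest or smallest differences between experiments, on the list of known LINC genes, or near a p53 target. Other rows named for 5 of 5 pairs, level per kb, presence or overlap were chosen after their values were seen. The members and lists were chosen with earlier results of these data known. One symbol of this form was left out by the rule for the members and is not reported here. Alternatives covered scaling, filters, pseudocounts, voom, blocks, each experiment alone and each library left out.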

Additional observations from a re-analysis of the deposited data

Results flagged for a closer look

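Under Nutlin-3a with peptide, every pair of experiment 1 lay below 0 and every pair of experiment 2 above 0 for LINC00511 and for LINC00673, neighbouring rows that may be 1 transcript. For LINC00511 the mean pair difference was -0.09 in experiment 1 and 0.61 in experiment 2, which differ by 0.70 on the log2 scale. The test of that difference gave an adjusted p of 1.00 in limma, and 0.231 with blocks. For LINC00673 the means were -0.09 and 0.48, which differ by 0.57, with an adjusted p of 1.00 in limma, and 0.247 with blocks. Neither difference passed the test.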

How the results depend on the processing

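With the numbers as a replicate block, 0 rows of the table were called in each treatment comparison, as without it. The block with voom called 9 genes under Nutlin-3a without peptide, 3 for the peptide under Nutlin-3a, 7 under Nutlin-3a with peptide and 4 for the difference of the Nutlin-3a effects. The block without the library that stood apart called 5 under Nutlin-3a without peptide. It gave LINC medians of 0.058 there, -0.016 for the peptide under Nutlin-3a and -0.012 for the difference of the Nutlin-3a effects, all of the opposite sign to those with it. Experiment 1 alone, with or without the block, called 1 gene for the peptide under Nutlin-3a, 1 for the peptide without it and 1 under Nutlin-3a with peptide, and experiment 2 alone with the block called 2 for the peptide under Nutlin-3a. Testing every row with at least 1 read called 1 LINC row, the only gene called, under Nutlin-3a with peptide. The LINC median under Nutlin-3a with peptide was -0.065 in experiment 1 alone, with or without the block. For the peptide without Nutlin-3a it ran from -0.080 to 0.058 as single libraries were left out.

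Between experiments, 200 of 797 LINC rows were called with every row of at least 1 read (25.1%, all rows 29.9%) and 35 of 73 with a mean of at least 5 RPM (47.9%, all rows 47.7%). Leaving out single libraries gave 55 to 96 LINC calls and 4341 to 7106 over all rows, against 92 and 6830. The LINC median was -0.39 in plain RPM, -0.069 with every row of at least 1 read and -0.20 with a pseudocount of 5. A line at 0.1 RPM found 344 LINC rows in experiment 1, and a line at 5 RPM found 70 there and 73 in experiment 2. In plain RPM, 5 of 5 pairs were higher for 3 and lower for 4 LINC rows under Nutlin-3a without peptide (all rows 2.58% and 3.19%), higher for 3 and lower for 5 for the peptide under Nutlin-3a (all rows 3.16% and 3.75%), and higher for 6 under Nutlin-3a with peptide (all rows 1.28%). The cause of these shifts was not tested beyond the numbers of rows and samples.

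Signs turned for a few named rows. In experiment 1 alone, with or without the block, LINC00152 was at 0.018 for the peptide without Nutlin-3a, and LINC00511 at -0.087 and LINC00673 at -0.083 under Nutlin-3a with peptide. With single libraries left out, LINC00672 ran from -0.13 to 0.56 under Nutlin-3a without peptide and LINC00486 from -0.048 to 0.62 for the peptide under Nutlin-3a. For the peptide without Nutlin-3a, LINC01270 ran from -0.0090 to 0.31, LINC00152 from -0.54 to 0.0074 and LINC00511 from -0.53 to 0.029. Under Nutlin-3a with peptide, LINC00672 ran from -0.040 to 0.80, LINC00511 from -0.0061 to 0.54, LINC00486 from -0.076 to 0.72, LINC00673 from -0.12 to 0.53, LINC01389 from -0.29 to 0.017 and LINC01234 from -0.20 to 0.022. LINC00698 ran from -0.18 to 2.24 between the experiments. At these depths a change in a row of few reads was not detectable. Means in experiments 1 and 2 were higher for LINC00673 (581 and 81.6 RPM), LINC00152 (298 and 64.8 RPM) and LINC01234 (38.6 and 31.9 RPM). Why signs turned was not tested.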
